A study of Homo sapiens with 14 samples.

Results

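The glioma stem, glial and mesenchymal identity genes are 40 genes listed by symbol, of 20992 named genes on the array. Every non-control probe whose transcript accession belonged to a member was used, which gave 64 of 50599 probes, with 1 probe for 25 members and several for 15. The members are 11 transcription factors of neural progenitors, 5 stem and progenitor markers, 6 glial genes, 3 genes of the neuronal lineage, 9 transcription factors of the mesenchymal programme and 6 mesenchymal markers. A172 and U87-MG are established human glioblastoma cell lines. By the GEO labels RNA was taken 40 h after electroporation with a negative control siRNA or with an siRNA against exon 1 of LINC00152, a long noncoding RNA, and was hybridised to single-colour Agilent arrays. Each siRNA was used in 3 independent experiments in A172 and in 4 in U87-MG, which gave 14 arrays, and the study's own text names a different time for them. The control and knockdown arrays of a set number form a pair.

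Glioblastoma cells are commonly described by which normal programme they resemble: that of neural stem and progenitor cells, of glia or of mesenchymal cells. Transcription factors such as SOX2, OLIG2, POU3F2 and SALL2 belong to the stem-like programme, and CEBPB, RUNX1 and the SNAI, TWIST and ZEB factors to the mesenchymal programme. GFAP and S100B mark astrocytes, and CD44, CHI3L1 and VIM are widely used mesenchymal markers of these tumours.

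The siRNAs listed against LINC00152, both to exon 1, are shown because they define the treated groups. The sample labels do not say which of them was used on the arrays. Each is 25 bases long and is written 5′ to 3′.
siLINC00152 #1: tgcctgtcttcagatcttcacagca
siLINC00152 #2: agtttcaaattgacattccagacaa

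A level below is the log2 of the background-corrected signal relative to the 75th percentile of the same array, so 0 is the 75th percentile. A probe counts as detected on an array where the scanner software called it well above background. The 75th percentile lay at an intensity of 131 to 284 on A172 arrays and of 33.0 to 69.0 on U87-MG arrays, and 57.3 to 69.0% of spots were well above background in A172 against 35.7 to 48.3% in U87-MG. The number of arrays limits the precision. The A172 pairs lay on 3 slides, 1 pair to a slide, and all 8 U87-MG arrays on the other slide, so line and slide cannot be told apart.

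Set 3 of U87-MG stood apart. Its control and knockdown arrays had the lowest shares of spots well above background of the 14 arrays, 35.7 and 40.4%, and the median probe of its control array lay 0.746 log2 units from the mean of the other U87-MG control arrays. The same distance was 0.548 for control array 4 of U87-MG, 0.495 and 0.431 for knockdown arrays 3 and 4, and 0.192 to 0.253 for the other U87-MG arrays. In A172 it ran from 0.246 to 0.542, with control arrays 1 and 2 at 0.542 and 0.504. Estimates given below for single genes after knockdown in U87-MG, and medians over their groups, are also given without set 3 where this moved them by over 1.5 times.

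The LINC00152 probe was used to check the labels. In A172 it read 2.63, 2.44 and 2.48 on the control arrays and 0.23, -0.42 and -0.10 on the knockdown arrays, a log2 fold change of -2.61 (SE 0.239, limma adjusted p = 0.000731). In U87-MG it read 1.94, 1.83, 1.71 and 1.82 on the control arrays and -1.21, -0.88, -0.74 and -0.79 on the knockdown arrays, a log2 fold change of -2.73 (SE 0.207, limma adjusted p = 4.96e-05). The control and knockdown arrays did not overlap in either line, and the probe was detected on all 14 arrays.

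Which identity genes could be measured came before any comparison. Of the 40 members, 17 were detected on every one of the 14 arrays, 5 on none (OLIG1, PROM1, FABP7, S100B and PTPRZ1) and 18 on some. In A172, 30 members were detected on all 6 arrays and 5 on none. In U87-MG, 18 were detected on all 8 arrays and 10 on none.

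**Figure D1:**
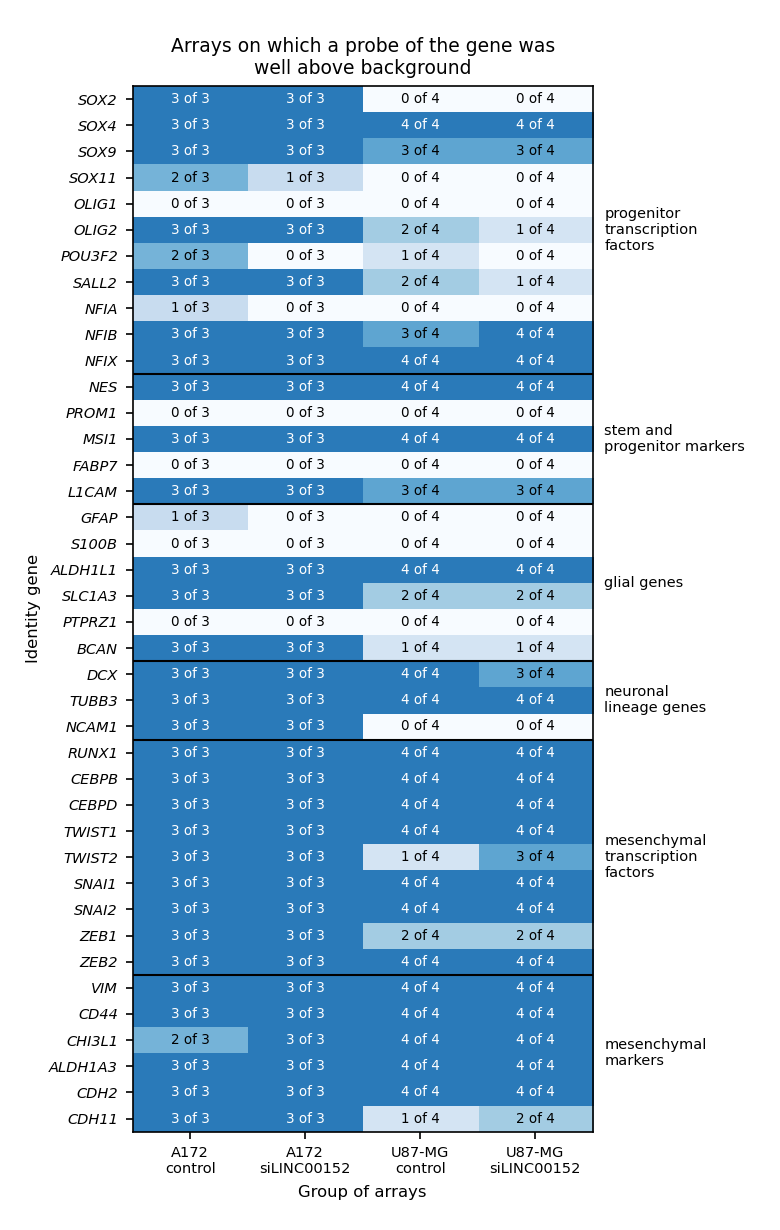
Number of arrays of each group (columns) on which at least 1 probe of an identity gene (lines of the grid, grouped by role) was well above background. In A172 both mesenchymal groups are full except for CHI3L1, detected on 2 of 3 control arrays, whereas OLIG1, PROM1, FABP7, S100B and PTPRZ1 are empty in every group.

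The mesenchymal genes were the most completely detected. On every array, 7 of 9 mesenchymal transcription factors and 4 of 6 mesenchymal markers were detected. The markers were VIM, an intermediate filament protein, CD44, a hyaluronan receptor, ALDH1A3, an aldehyde dehydrogenase that makes retinoic acid, and CDH2, N-cadherin.

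The progenitor and glial genes were detected less completely. On every array, 2 of 11 progenitor transcription factors (SOX4 and NFIX), 2 of 5 stem and progenitor markers (NES and MSI1), 1 of 6 glial genes (ALDH1L1) and 1 of 3 neuronal lineage genes (TUBB3) were detected. SOX2, the pluripotency and neural stem cell factor, and NCAM1, a neural adhesion molecule, were detected on all 6 A172 arrays and on 0 of 8 U87-MG arrays. GFAP, the astrocyte intermediate filament, and NFIA, a factor of gliogenesis, were each detected on 1 array, GFAP on A172 control array 2 and NFIA on A172 control array 1. The defining astrocyte markers GFAP and S100B were thus not well above background on any U87-MG array, and on only 1 A172 array was either of them.

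POU3F2 and SOX11, a POU and a SOX factor of neural progenitors, were each detected on 3 arrays and were too dim to test. POU3F2 read -2.13, -3.68 and -3.31 on the A172 control arrays, 2 of which detected it, and -5.22, -5.31 and -5.07 on the knockdown arrays, none of which did. It was lower in 3 of 3 pairs, with no test. Control array 2 of A172 did not detect it either, so no fold change or bound is given. In U87-MG it read -1.25, -4.42, -1.25 and -4.55 on the control arrays, 1 of which detected it, and -4.20, -4.14, -3.81 and -4.48 on the knockdown arrays, lower in 2 of 4 pairs and higher in 2.

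NFIA was likewise too dim to test. In U87-MG, 1 of its 2 probes read -3.04, -3.11, -3.09 and -2.94 on the control arrays and -4.23, -4.04, -3.73 and -4.35 on the knockdown arrays. Every knockdown array was below every control array, but no U87-MG array detected the probe, so no fold change is given. Its other probe was lower in 1 of 4 U87-MG pairs and was not detected there either.

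Most of the remaining members detected on some arrays were missed on U87-MG arrays. OLIG2, an oligodendrocyte lineage factor, and SALL2, a zinc finger factor, were each detected on 9 arrays, and ZEB1, TWIST2 and SLC1A3, the glutamate transporter GLAST, each on 10. BCAN, a brain proteoglycan, was detected on 8, and CDH11, a mesenchymal cadherin, on 9. Each of these was detected on all 6 A172 arrays. SOX9 and L1CAM were detected on 12 arrays, and NFIB, DCX and CHI3L1 on 13.

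The control arrays of the lines were compared to ask how the identity genes differ between A172 and U87-MG. A probe was tested if at least 3 control arrays of 1 line detected it, and was called at an adjusted p below 0.2 with an absolute log2 fold change above 0.5. Of 45 member probes tested, limma called 29 (64.4%), against 54.5% of all 28248 tested probes. A probe could enter through 1 line alone, so a difference between the lines could itself bring it in. With detection on every control array of both lines, 16 of 24 member probes (66.7%) were called, against 55.7% of all tested probes. Probes that entered through the brighter line alone rest partly on undetected levels and are given below without a p-value. Of the 29 called, 19 were higher in A172 and 10 in U87-MG, beside 27.1% and 27.5% of all tested probes. With no filter on dim probes, 20 were higher in A172 and 24 in U87-MG. The median log2 difference, A172 minus U87-MG, was 0.44 over the member probes and 0.02 over all tested probes. With detection on every control array of both lines these medians were 0.12 and -0.27. Line and slide cannot be told apart in any of these differences.

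By gene, 11 members were higher in A172, 9 were higher in U87-MG, NES had probes in opposite directions, 10 were not called and 9 were not tested. Thus 21 of 31 tested members had a called probe, beside 8815 of 14700 named genes tested on the whole array. The members higher in A172 were SOX2, SOX4, SOX9, L1CAM, DCX, NCAM1, RUNX1, TWIST1, TWIST2, CDH2 and CDH11. Those higher in U87-MG were NFIB through 1 of its probes, MSI1, SLC1A3, CEBPB, SNAI2, ZEB2, VIM, CHI3L1 and ALDH1A3. That NFIB probe entered the test through A172 alone. Its direction rests partly on U87-MG levels not well above background.

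**Figure D2:**
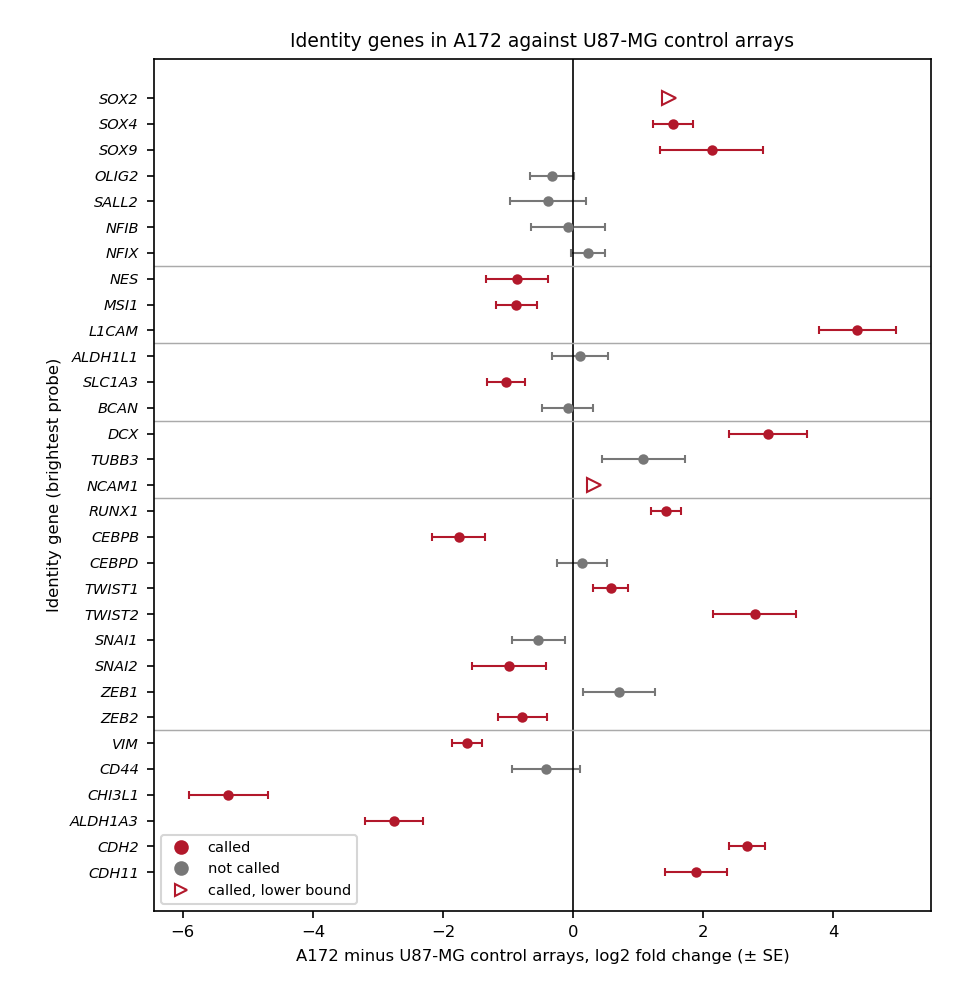
Log2 fold change of each tested identity gene, A172 minus U87-MG control arrays (x axis, limma estimate and SE, 3 against 4 arrays), for the brightest probe of the gene. Open triangles are lower bounds for genes that no U87-MG control array detected. OLIG2, SALL2, SLC1A3, BCAN, TWIST2, ZEB1 and CDH11 were detected on 1 or 2 of 4 U87-MG control arrays, and SOX9 and L1CAM on 3 of 4. NFIB was detected on 3 of 4 when all its probes are counted, and CHI3L1 on 2 of 3 A172 control arrays. L1CAM lies farthest to the A172 side at 4.37 and CHI3L1 farthest to the U87-MG side at -5.30.

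Among the progenitor transcription factors, SOX2 averaged -0.46 on the A172 control arrays. No U87-MG control array detected SOX2, and it was at least 2.76-fold higher in A172. It entered the test through A172 alone, so no p-value is given. SOX4, a SOX factor of progenitors and of many tumours, differed by 1.53 (SE 0.301, limma adjusted p = 0.00134). SOX9, which acts in neural stem cells and in gliogenesis, differed by 2.13 (adjusted p = 0.0462), and by 1.27 (adjusted p = 0.0852) without U87-MG control array 3. NFIX, a nuclear factor I protein, was not called. It read 1.47, 1.83 and 1.5 on the A172 control arrays and 1.06, 1.39, 1.43 and 1.62 on those of U87-MG, and the lines overlapped.

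Among the stem and progenitor markers, L1CAM, a neural adhesion molecule, differed by 4.37 (SE 0.590, adjusted p = 7.72e-05). Of 4 U87-MG control arrays 3 detected it, so this value rests partly on a level not well above background. The value ran from 3.66 to 4.87 when an array or pair was left out. Its other probe was detected on no U87-MG control array and was at least 37.4-fold higher in A172. That probe entered the test through A172 alone, so no p-value is given. MSI1, an RNA-binding protein of neural stem cells, was higher in U87-MG, with a log2 fold change of -0.88 (adjusted p = 0.0413).

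NES, the neural stem cell filament nestin, went in opposite directions by its probes. The brighter probe read 6.18, 7.32 and 6.48 in A172 and 8.0, 8.16, 6.39 and 7.57 in U87-MG, a log2 fold change of -0.87 (adjusted p = 0.167). The other read 2.39, 4.47 and 3.87 in A172 and 0.19, -0.19, 1.44 and 0.81 in U87-MG, a log2 fold change of 3.02 (adjusted p = 0.000473). By the brighter probe the lines overlapped through U87-MG control array 3, and by the other they did not overlap. No single direction can therefore be given for NES.

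Of the 3 glial genes tested, SLC1A3 was higher in U87-MG, with a log2 fold change of -1.03 (adjusted p = 0.0124), but only 2 of 4 U87-MG control arrays detected it. Its U87-MG levels of -1.74 to -1.19 lay among the lowest levels that those arrays called well above background, -2.35 to -1.12, so its direction rests on values near background. ALDH1L1, a folate enzyme of astrocytes, read -1.23, 0.01 and -0.63 in A172 and -0.56, -1.35, 0.47 and -1.45 in U87-MG. The lines overlapped for ALDH1L1, and neither it nor BCAN was called.

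Of the 3 neuronal lineage genes, 2 were higher in A172. DCX, a microtubule protein of migrating young neurons, differed by 3.00 (adjusted p = 0.00147). NCAM1, which no U87-MG control array detected, was at least 1.25-fold higher in A172. TUBB3, a neuronal beta tubulin that gliomas also express, read 4.40, 4.91 and 4.25 in A172 and 3.97, 4.32, 1.30 and 4.20 in U87-MG. The lines overlapped, U87-MG control array 3 was far below the rest, and the difference of 1.08 was not called (adjusted p = 0.202). Without that array it was 0.36 (adjusted p = 0.530). TUBB3 was called (adjusted p = 0.197) when only probes detected on every control array of both lines were kept, where array 3 is included.

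The mesenchymal transcription factors split between the lines. RUNX1, a runt factor, was higher in A172 by 1.42 (SE 0.233, adjusted p = 0.000358), and 4 of its 5 probes were called in that direction. Of these, 1 entered the test through A172 alone. The probe with the value given was detected on every control array of both lines. The bHLH factors TWIST1 and TWIST2 were called higher in A172. TWIST1 differed by 0.58 by its brighter probe (adjusted p = 0.103). By its other probe, which no U87-MG control array detected, it was at least 1.57-fold higher in A172. For TWIST2 only 1 of 4 U87-MG control arrays detected the brighter probe, so no exact difference is given. By another probe, which none of them detected, TWIST2 was at least 1.25-fold higher in A172. Both TWIST2 probes entered the test through A172 alone.

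In the other direction, CEBPB, a C/EBP factor, had a log2 fold change of -1.76 (adjusted p = 0.00377). SNAI2 had -0.98 (adjusted p = 0.191), or -1.49 (adjusted p = 0.0250) without U87-MG control array 3, and ZEB2, through 1 of its 2 tested probes, had -0.78 (adjusted p = 0.118), both repressors of epithelial genes. CEBPD, also a C/EBP factor, was not called. It read 7.36, 8.26 and 7.56 in A172 and 8.22, 7.99, 7.02 and 7.13 in U87-MG, with overlap. SNAI1, detected on all 14 arrays, was not called either.

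The mesenchymal markers also split between the lines. CHI3L1, a secreted glycoprotein, had a log2 fold change of -5.30 (SE 0.606). It was detected on 2 of 3 A172 control arrays, so it was tested through U87-MG alone. ALDH1A3 had -2.75 (SE 0.443, adjusted p = 0.00032) and VIM -1.64 (SE 0.227, adjusted p = 9.58e-05). VIM read 7.28, 7.05 and 7.07 in A172 and 8.90, 8.95, 8.32 and 8.92 in U87-MG. Every U87-MG control array was above every A172 control array for VIM.

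The cadherins went the other way. CDH2 was higher in A172 by 2.67 (adjusted p = 6.81e-06). CDH11 was called in the same direction, but it entered the test through A172 alone. Only 1 of 4 U87-MG control arrays detected CDH11, so no exact difference is given. CD44 was not called by either of its probes. Without U87-MG control array 3 its brighter probe was called higher in U87-MG (-0.83, adjusted p = 0.182).

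Some of these calls were close to the threshold. Over 21 fits that each left out 1 array or 1 pair, SNAI2 was called in 5, NES by its brighter probe in 11, TWIST1 by its brighter probe in 14, ZEB2 by its brighter probe in 17 and MSI1 in 20, and each kept its direction. The MSI1 call was lost without A172 control array 1 (-0.52, adjusted p = 0.212). Without U87-MG control array 3, 31 of 45 member probes were called, the brighter CD44 probe and the remaining RUNX1 probe joining the others. Over the 21 fits, calls among all tested probes also varied, from 12649 to 16408, beside 15397 with every array kept. With only probes detected on every control array of both lines, a setting chosen after the data were seen, 16 of 24 member probes were called, 9 higher in A172, TUBB3 among them, and 7 in U87-MG. With the deposited values in place of the 75th-percentile scale, the median of all tested probes in this comparison moved by 0.10.

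Other background correction and scaling also ended some calls between the lines. With normexp correction and quantile normalisation, NFIB (-0.15, adjusted p = 0.421), SLC1A3 (-0.20, adjusted p = 0.191), NCAM1 and the brighter probe of TWIST1 (0.45, adjusted p = 0.0253) were not called. The same setting called these members but with differences smaller by over 1.5 times: CHI3L1 (-2.42), L1CAM by its brighter probe (2.77), SOX9 (1.24), SOX4 (0.95) and MSI1 (-0.56). The fitted values of probes that most U87-MG control arrays did not detect also shrank, to 1.03 for SOX2, 3.98 for the other L1CAM probe, 1.03 for TWIST2 and 0.76 for CDH11. For SOX2 and that L1CAM probe these lie below the bounds given above, so the bounds hold on the 75th-percentile scale only. With the deposited values, NES by its brighter probe (-0.62, adjusted p = 0.248) and SNAI2 (-0.95, adjusted p = 0.204) were not called.

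The knockdown comparisons ask whether identity genes change when LINC00152 is lowered. In A172, limma without the pairing called 0 of 45 member probes of 31 genes, against 0.184% of all 28337 tested probes. At an unadjusted p below 0.05 the member count was also 0, against 2.28% of all tested probes. The median log2 fold change was -0.09 over the members and 0.02 over all tested probes.

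With each pair as a block, which removes level differences that the arrays of a pair share, 1 of 45 member probes (2.22%) was called in A172, against 3.26% of all tested probes. At an unadjusted p below 0.05 this fit gave 7 member probes, 15.6% against 10.7% of all tested probes. In A172 the share called with the block was thus no higher among the identity genes than among all probes, on 1 call.

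In U87-MG, limma without the pairing called 0 of 30 member probes of 23 genes, against 0.0502% of all 21919 tested probes, and 1 member probe, of TWIST2, had an unadjusted p below 0.05 (3.33% against 2.31% of all tested probes). With the pair as a block 2 of 30 (6.67%) were called, against 4.19% of all tested probes, and 4 had an unadjusted p below 0.05, 13.3% against 16.9% of all tested probes. The median log2 fold change was 0.03 over the members and -0.02 over all tested probes, and without set 3 it was -0.01 over 29 member probes.

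The difference between the lines in knockdown effect was tested for the 30 member probes measured in both. Without the pairing 0 were called and 0 had an unadjusted p below 0.05, against 0.00945% of all 21163 tested probes called. With the pair as a block 1 (3.33%) was called, against 0.421% of all tested probes, and 5 had an unadjusted p below 0.05, 16.7% against 8.31% of all tested probes.

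**Figure D3:**
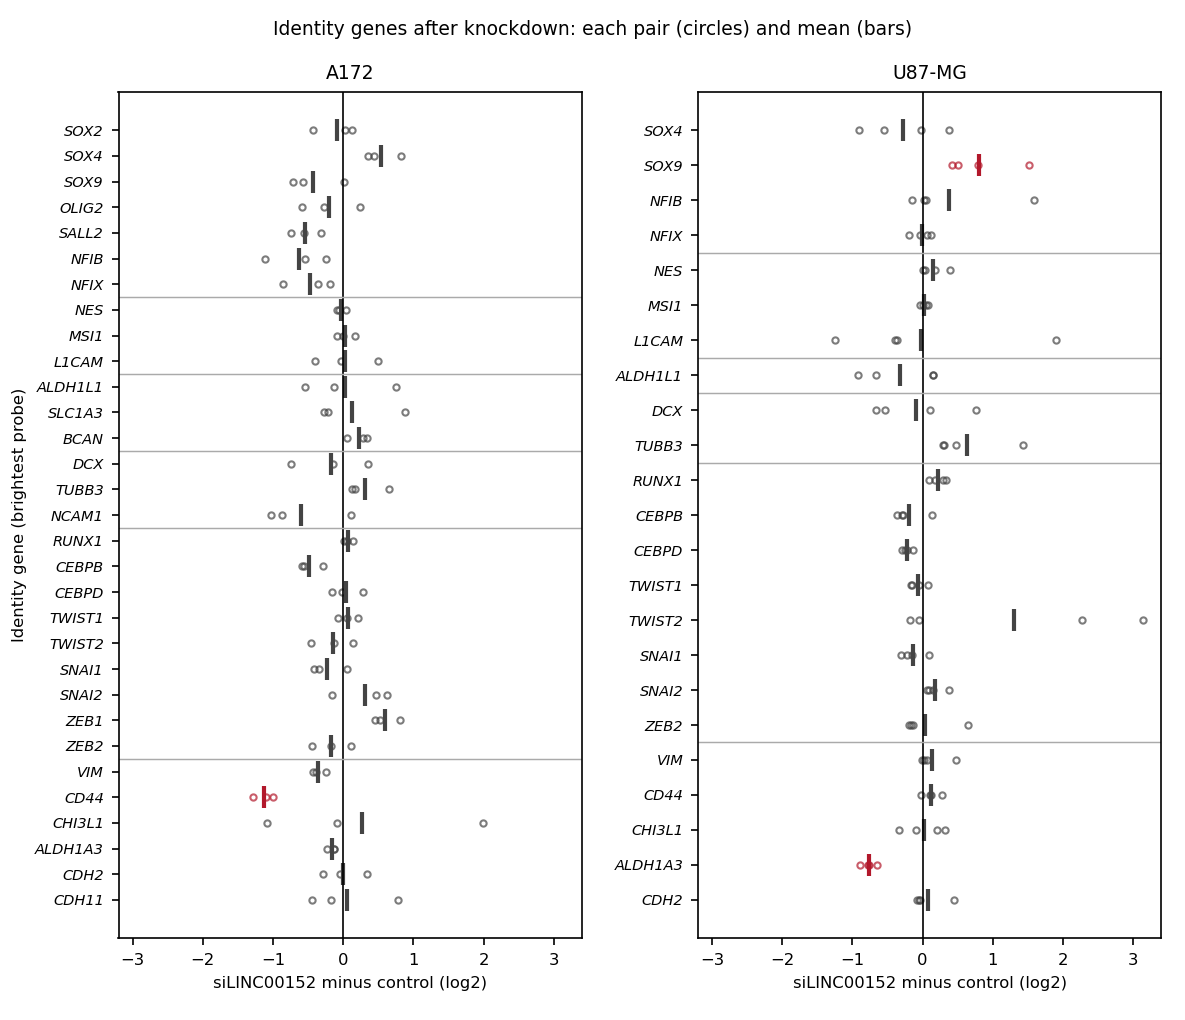
Knockdown minus control level (x axis, log2) of each tested identity gene in A172 (left, 3 pairs) and U87-MG (right, 4 pairs), for the brightest probe of the gene. Circles are pairs, bars are means, and red marks genes called with the pair as a block: CD44 in A172, and SOX9 and ALDH1A3 in U87-MG. Most bars lie within 0.5 of 0.

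CD44 was the member called in A172. Its brighter probe read 3.00, 1.76 and 1.47 on the control arrays of sets 1 to 3 and 1.72, 0.66 and 0.47 on the knockdown arrays. The groups overlapped, because control levels differed widely among the sets, but within every pair the knockdown array was lower. The log2 fold change was -1.13 (SE 0.119, limma adjusted p = 0.00807) with the pair as a block and the same with SE 0.560 (adjusted p = 1.00) without it. In these bulk samples, fewer cells of a type and less RNA per cell cannot be told apart.

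The call for CD44 in A172 was kept in each of 7 block fits that left out a pair, with log2 fold changes from -1.19 to -1.05 and adjusted p from 0.00947 to 0.0886. Its other probe read 0.02, -0.79 and -0.23 on the control arrays and -0.48, -0.73 and -0.52 on the knockdown arrays. That probe was lower in 2 of 3 pairs, and its log2 fold change of -0.24 was not called with the pair as a block (adjusted p = 0.694). The fall in CD44 was therefore seen with 1 of its probes.

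In U87-MG the brighter CD44 probe read 2.79, 2.90, 1.27 and 3.05 on the control arrays and 2.91, 2.88, 1.54 and 3.15 on the knockdown arrays. Set 3 was low under both siRNAs, and the knockdown array was higher in 3 of 4 pairs. The log2 fold change of 0.12 was not called with the pair as a block (adjusted p = 0.558), and without set 3 it was 0.07 (adjusted p = 0.797).

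Subtracting the U87-MG change from the A172 change of CD44 gave -1.25 (SE 0.158, adjusted p = 0.0861) with the pair as a block, and was not called without it (adjusted p = 1.00). Of 7 block fits that left out a pair, 1 called this difference, that without set 3 of U87-MG (-1.20, adjusted p = 0.119). In the other fits the adjusted p went up to 0.411.

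ALDH1A3 was called in U87-MG. It read 3.25, 3.44, 2.00 and 3.35 on the control arrays and 2.47, 2.55, 1.35 and 2.58 on the knockdown arrays. Apart from set 3, every knockdown array was below every control array, and the knockdown array was lower in 4 of 4 pairs. The log2 fold change was -0.77 (SE 0.0951, limma adjusted p = 0.0230) with the pair as a block and had SE 0.411 (adjusted p = 1.00) without it.

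Without set 3 the block fit gave -0.81 for ALDH1A3 in U87-MG (adjusted p = 0.0341), and all 7 block fits that left out a pair called it, with adjusted p up to 0.162. In A172 it read 0.20, 0.92 and -0.36 on the control arrays and 0.07, 0.70 and -0.49 on the knockdown arrays. The knockdown array was lower in 3 of 3 pairs there, by little, and the log2 fold change of -0.16 was not called with the pair as a block (adjusted p = 0.769). The difference between the lines, 0.60, was not called with the pair as a block either (adjusted p = 0.312).

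SOX9 was called in U87-MG in the other direction. It read -0.20, 0.11, -3.22 and 0.66 on the control arrays and 0.59, 0.61, -1.70 and 1.08 on the knockdown arrays, and each group detected it on 3 of 4 arrays. The groups overlapped, set 3 was far below the others, and the knockdown array was higher in 4 of 4 pairs. The log2 fold change was 0.81 (SE 0.204, limma adjusted p = 0.130) with the pair as a block and had SE 0.727 (adjusted p = 1.00) without it. Over the alternatives that left out no array, it ran from 0.31 to 0.96.

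Without set 3 the SOX9 block estimate in U87-MG was 0.57 (adjusted p = 0.198). The call was lost without pair 2 of A172 (adjusted p = 0.209) or pair 3 of A172 (adjusted p = 0.230), which enter through the common estimate of the spread. Without pair 1, 2 or 4 of U87-MG, SOX9 was detected on too few arrays to test there. In A172 SOX9 read 1.32, 1.49 and 1.57 on the control arrays and 0.61, 1.51 and 0.99 on the knockdown arrays. It was lower in 2 of 3 pairs, and neither the log2 fold change of -0.43 (adjusted p = 0.648) nor the difference between the lines, -1.24 (adjusted p = 0.334), was called with the pair as a block. Over the alternatives that left out no array, that difference ran from -1.43 to -0.68.

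**Figure D4:**
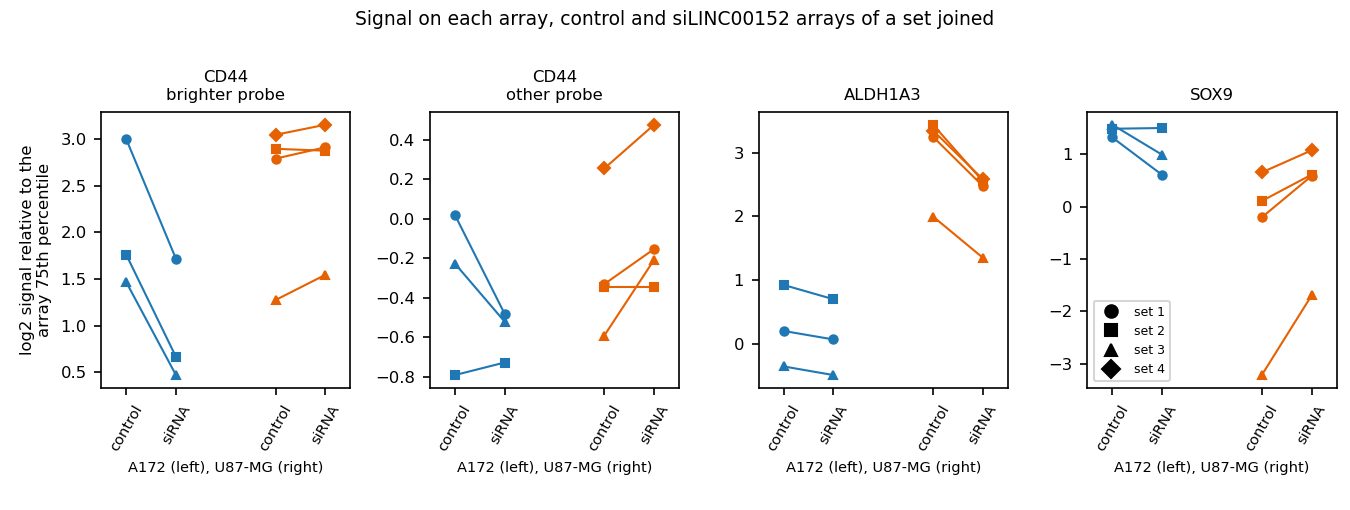
Level on each array (y axis, log2 relative to the 75th percentile of the array) for the probes of CD44, ALDH1A3 and SOX9, with the control and knockdown arrays of a pair joined, A172 in blue and U87-MG in orange. The lines of the brighter CD44 probe fall in A172, those of ALDH1A3 fall in U87-MG, and set 3 of U87-MG starts low for both genes. The y axes differ between panels.

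The other progenitor transcription factors were not called. In A172 the 9 tested probes of this group had a median log2 fold change of -0.43. NFIX read 1.28, 1.47 and 0.65 on the A172 knockdown arrays, below its pair each time (-0.47, adjusted p = 0.274 with the pair as a block). SOX4 was higher in 3 of 3 A172 pairs, with a log2 fold change of 0.54 (adjusted p = 0.481 with the pair as a block), and in U87-MG it had -0.27, or -0.06 without set 3. The tested probes of NFIB, a nuclear factor I protein, had -0.98 (adjusted p = 0.310 with the pair as a block), -0.64 and -0.19 in A172. In U87-MG 4 probes of the group were tested, with a median of 0.18, or -0.03 without set 3.

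The stem and progenitor markers stayed near 0, with a median log2 fold change of 0.01 over 5 probes in A172 and -0.00 over 4 probes in U87-MG (0.01 over the 3 tested without set 3). The brighter NES probe read 6.10, 7.27 and 6.51 on the A172 knockdown arrays and 8.18, 8.19, 6.78 and 7.57 on those of U87-MG. In U87-MG the knockdown array was higher in 4 of 4 pairs, by 0.40 in set 3 and by less in the others. No probe of this group was called.

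The tested glial genes had a median log2 fold change of 0.13 over 3 probes in A172, and the only glial probe tested in U87-MG, that of ALDH1L1, had -0.32, or -0.12 without set 3. ALDH1L1 read -0.49, -0.53 and -0.76 on the A172 knockdown arrays and -1.23, -1.21, -0.45 and -1.30 on those of U87-MG. Control and knockdown arrays overlapped in both lines.

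Among the neuronal lineage genes, TUBB3 read 5.06, 5.03 and 4.42 on the A172 knockdown arrays and 4.44, 4.61, 2.74 and 4.49 on those of U87-MG. It was higher than the control array in every pair of both lines, with log2 fold changes of 0.32 and 0.63, and was not called with the pair as a block (adjusted p = 0.828 and 0.205). Without set 3 the U87-MG value was 0.36 (adjusted p = 0.284). The median over the group was -0.18 in A172 (3 probes) and 0.27 in U87-MG (2 probes).

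The mesenchymal transcription factors had a median log2 fold change of -0.07 over 17 probes in A172 and 0.03 over 12 probes in U87-MG (-0.02 without set 3). CEBPD read 7.64, 8.25 and 7.40 on the A172 knockdown arrays and 7.93, 7.77, 6.77 and 6.99 on those of U87-MG. In U87-MG it was lower in 4 of 4 pairs, with a log2 fold change of -0.22 that was not called (adjusted p = 0.334 with the pair as a block). In A172 CEBPB had -0.48 (adjusted p = 0.217) and ZEB1 0.59 (adjusted p = 0.268) with the pair as a block. TWIST2 in U87-MG was higher in 2 of 4 pairs and was not called (adjusted p = 0.271 with the pair as a block). It was detected on 1 of 4 control and 3 of 4 knockdown arrays, so no exact difference is given.

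The mesenchymal markers had a median log2 fold change of -0.11 over 8 probes in A172 and 0.07 over 7 probes in U87-MG (0.03 without set 3). VIM read 7.04, 6.66 and 6.64 on the A172 knockdown arrays and 8.89, 9.02, 8.79 and 8.95 on those of U87-MG. In A172 it was lower in 3 of 3 pairs (-0.36, adjusted p = 0.370 with the pair as a block), and in U87-MG it had 0.14, or 0.03 without set 3. CDH2 and CHI3L1 were not called in either line, and CDH11 was not called in A172 and was too dim to test in U87-MG.

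Over all members, 12 of 45 probes were lower and 6 higher in every A172 pair, 40.0% with a shared direction against 36.3% of all tested probes. In U87-MG 2 of 30 were lower and 6 higher in every pair, 26.7% against 30.5%. The mean difference was within 0.5 log2 for 37 of 45 member probes in A172 (82.2% against 92.0% of all tested probes) and for 26 of 30 in U87-MG (86.7% against 92.6%).

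Further genes of the same programmes were read from lists. Of 12 further mesenchymal genes, 8 were detected on every array. Among the proneural and oligodendrocyte precursor genes 3 of 10 were, namely SOX10, CSPG4 and GPR17. Among further astrocyte genes 5 of 10 were, CLU and HOPX the brightest, and among further neuronal genes 2 of 10, RBFOX3 and INA. Among relatives of the members 5 of 15 were, POU3F1 the brightest. PDGFRA, the receptor of oligodendrocyte precursors, SLC1A2, an astrocyte glutamate transporter, and SOX1 were detected on no array.

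Without the pairing, limma called 0 probes of these lists in either knockdown comparison, and 1 of the further mesenchymal probes had an unadjusted p below 0.05 in A172. With the pair as a block, 2 of 12 further mesenchymal probes fell in A172 (16.7% against 3.26% of all tested probes called) and none of the other lists had a call in either line. In that fit 6 of 12 further mesenchymal probes had an unadjusted p below 0.05 in A172 (50% against 10.7% of all tested probes, median log2 fold change -0.44) and 4 of 11 in U87-MG (36.4% against 16.9%, median 0.21). The lists were chosen with earlier results of these data known, so these shares are no independent test of the programme. BHLHE40, a bHLH repressor, read 2.32, 2.49 and 3.06 on the A172 control arrays and 1.49, 1.64 and 2.28 on the knockdown arrays. It was lower in every pair (-0.82, adjusted p = 0.0298), and the call was lost without pair 2 (-0.81, adjusted p = 0.218) or pair 3 of A172 (-0.85, adjusted p = 0.207). LGALS1, the galectin-1 gene, had -0.57 (adjusted p = 0.130) and was called in 1 of 7 block fits that left out a pair, that without set 3 of U87-MG (adjusted p = 0.0694).

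Between the control arrays, limma called 12 of 13 further mesenchymal probes, 4 of 7 proneural, 3 of 7 astrocyte, 5 of 6 neuronal and 9 of 13 probes of relatives, beside 54.5% of all tested probes. FN1, fibronectin, had a log2 fold change of -6.09 (adjusted p = 9.84e-09), higher in U87-MG. TGFBI, a matrix protein, was also called higher in U87-MG, and only 1 of 3 A172 control arrays detected it. NEFL, a neurofilament, was detected on no U87-MG array and was at least 12.6-fold higher in A172 on the 75th-percentile scale.

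Markers of other cell types were also read. CDH1, the epithelial cadherin, CX3CR1 of microglia and TEK of endothelium were detected on no array, and EPCAM and P2RY12 on 1. Other markers of the same lists were detected on every array. These were 2 of 8 epithelial markers (CLDN4 and CLDN7), 1 of 5 microglia and leukocyte markers (PTPRC) and 2 of 5 endothelial markers (VWF and CDH5). CLDN7 averaged 5.42 over the 14 arrays by its brighter probe. None of these lists had a probe called after knockdown in either line, with or without the pairing. Between the control arrays 4 of 6 epithelial, 2 of 4 microglia and leukocyte and 3 of 5 endothelial probes were called, against 54.5% of all tested probes, and their part in the differences between the lines was not tested.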

How the data were processed

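The authors deposited 1 scanner file per array, from Agilent Feature Extraction 11.5.1.1, whose processed signal is a background-corrected intensity, and a deposited table of normalised log2 values. The 14 arrays were grouped by line and siRNA as the labels give them. The log2 of the processed signal of 58717 non-control spots was set relative to the 75th percentile of each array, spots that the software reported as outliers were dropped, and the rest were averaged per probe. A probe counted as detected if at least 0.5 of its spots were well above background. Accessions named 29033 of 50599 probes through RefSeq (GRCh38.p14), and no coordinates were used. Probes detected on at least 3 arrays of a group were tested with limma 3.58.1 (R 4.3.3) in 1 model of 4 group means, with Benjamini-Hochberg adjustment over all tested probes of a comparison. A probe was called if its adjusted p was below 0.2 and its log2 fold change exceeded 0.5 in size. A bound sets the dimmer group at the lowest signal well above background on its arrays. Tables and plots used Python 3.11.15, pandas 2.3.3, numpy 2.4.6, scipy 1.17.1 and matplotlib 3.10.9, and the fit was tested on simulated data.

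The pairing by set number was checked on deviations from the group mean. Arrays of the same number correlated at 0.792, 0.794 and 0.675 in A172 and at 0.373, 0.569, 0.857 and 0.864 in U87-MG, while U87-MG control array 1 correlated at 0.403 with knockdown array 2. All members are named. Levels on every array are given for members called in a knockdown comparison, with or without the block, and for the brightest member of each role. POU3F2 and NFIA, which were not tested, were added after their values were seen. A gene with several probes is given by its brightest probe, and by the others where they differ. Genes outside the members are named from the other lists, at most 4 per list. The members and lists were chosen with earlier results of these data known.

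The alternatives were normexp background correction with quantile normalisation, quantile normalisation alone, the deposited values, no filter on dim probes, a stricter filter, outlier spots kept, each line fitted by itself, the pair as a block, eBayes with trend and robust settings, an adjusted p below 0.05, and leaving out each array or each pair. A filter on detection in both lines was added after the data were seen.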

Additional observations from a re-analysis of the deposited data

Results flagged for a closer look

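Control array 3 of U87-MG lay far below the other control arrays for CD44 (1.27), ALDH1A3 (2.00), TUBB3 (1.30) and VIM (8.32). Knockdown array 3 of U87-MG lay far below the others for ALDH1A3 (1.35) and TUBB3 (2.74), and far above them for ALDH1L1 (-0.45). Each gap to the nearest array passed Dixon's limit, which chance passes in about 1 in 20 single groups. The groups examined were read on the same U87-MG arrays and are not independent, so their count has no such rate. The limit was passed in 7 of 24 groups of 4 arrays. All 7 were arrays of set 3, which also had the fewest spots well above background in U87-MG, and the cause was not tested.

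The fall in CD44 in A172 minus the change in U87-MG was -1.25 with the pair as a block (limma adjusted p = 0.0861). It was lower in A172 in 3 of 3 pairs and higher in U87-MG in 3 of 4. Of 30 member probes tested in both lines, 0 moved one way in every A172 pair and the other way in every U87-MG pair.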

How the results depend on the processing

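With the pair as a block the calls over all tested probes rose from 52 to 924 in A172, from 11 to 918 in U87-MG and from 2 to 89 for the difference between lines, and the member calls from 0 to 1, 2 and 1. A block removes the spread that the arrays of a pair share. In A172 all calls were 34 with no filter on dim probes, 14 with each line fitted by itself and 27 at an adjusted p below 0.05. In U87-MG they were 41 with normexp and quantile normalisation, where 46.3% were higher after knockdown against 18.2% before, and 7 at an adjusted p below 0.05. For the difference they were 0 with normexp, and 1 each with quantile normalisation, the deposited values and an adjusted p below 0.05. Between control arrays, all calls went from 15397 to 9510 with normexp, 32734 with no filter and 9021 with detection on every control array of both lines, and member calls from 29 to 44 with no filter and 16 with that detection. The share of these calls higher in A172 went from 49.6% to 25.9% with no filter and 34.0% with that detection. Except where a filter changed the probes tested, the cause was not tested.

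Leaving out an array or a pair, with or without the block, gave 4 to 1422 calls over all probes in A172, 2 to 738 in U87-MG, 0 to 102 for the difference and 12649 to 16408 between control arrays. Member calls were 0 to 3, 0 to 2, 0 to 1 and 26 to 31. With the block, the 3 member calls in A172 came without set 3 of U87-MG, where the NFIB probe at -0.64 and ZEB1 joined CD44. Over 43 fold changes and 39 alternatives, 1381 of 1387 values kept their direction. Some alternatives cannot move a fold change, such as another threshold or an array of the other line left out. The tally by itself is therefore no measure of stability. The 6 values that changed direction came from leaving out an array with no block. ALDH1A3 in A172 was 0.17 without control array 2 and 0.13 without knockdown array 3 (range -0.47 to 0.17). Without control array 3, SOX9 in U87-MG was -0.041 (range -0.041 to 1.42), TUBB3 was -0.089 (range -0.089 to 1.07) and CD44 was -0.29. CD44 in U87-MG was -0.057 without knockdown array 4 (range -0.29 to 0.48). The cause was not tested.

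The calls for CD44, ALDH1A3 and SOX9 after knockdown needed the pairing and were absent without it. CD44 rested on 1 of 2 probes. U87-MG arrays were dimmer, and fewer member probes were tested there, 30 against 45. Line and slide cannot be told apart.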
